A study of Mus musculus with 16 samples.

Results

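Expression of 7 classical genes of heat-producing fat, Ucp1, Dio2, Cidea, Elovl3, Cox8b, Cox7a1 and Prdm16, was followed across white adipose tissue of mice that differed in Sirt1 genotype and in diet. The list of 8 symbols also held Cpt1b. Members were all probe sets that the platform's probe table assigns to 1 of these symbols and to no other gene, giving 12 probe sets of 45037 in the table and 7 genes of 18193. The only probe set of Cpt1b, the carnitine palmitoyltransferase of muscle and brown fat, was shared with other symbols, so no value is given for it. Of the 12 probe sets, 8 passed the filter for low values, which asks that 4 arrays or more reach a log2 of 4, and each of the 7 genes was represented among them.

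Total RNA of white adipose tissue, 5 ug per sample, was hybridised to 16 Affymetrix arrays in 4 groups of 4. The groups were Sirt1 knockouts fed high fat, wild types fed high fat, Sirt1 knockouts fed low fat and wild types fed low fat, all of background strain C57BL6/J, and are called high fat knockout, high fat wild-type, low fat knockout and low fat wild-type. The knockout mice carried a Cre transgene under the fatty acid binding protein 4 promoter (FABP4-Cre) and are labelled as having lost Sirt1, which encodes an NAD-dependent deacetylase, in adipocytes only, whereas the wild-type mice carried no Cre. Each diet was given for 8 weeks from 4 weeks of age and mice were 12 weeks old when sampled. None of these groups carried Cre with intact Sirt1, so effects of the transgene and of the deletion cannot be told apart. The fat depot is not given, and the labels do not say whether replicates are separate mice, so p-values reflect spread among samples that may be technical. All values are log2 expression as deposited, each difference is one of log2 values in the order named, and a difference passed the test at an adjusted p under 0.05 (limma, Benjamini-Hochberg over 12078 genes).

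Brown adipocytes burn fuel to make heat. Noradrenaline raises cAMP in these cells, lipid droplets release fatty acids, and the fatty acids open the uncoupling protein UCP1 in the inner mitochondrial membrane, so that the respiratory chain runs without making ATP. White depots of mice hold cells that can take on the same programme, called beige or brite adipocytes, and in lean mice the amount of Ucp1 RNA varies widely between depots.

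The promoters of Ucp1 and Dio2 are shown because both genes are textbook targets of cAMP, and in low fat knockout tissue Dio2 passed the test against wild type while Ucp1 did not. Whether these 2 differences differ from each other was not tested. The interval of the Ucp1 difference, -0.90 to 2.55, held the Dio2 difference of 1.90. Dio2 entered the test only through the low fat knockout arrays, where it is high. The letters are the 250 bases before the RefSeq gene start (GRCm38.p6), read 5′ to 3′ in the direction of the gene. Capitals mark matches to 4 motifs searched on both strands, namely the nuclear receptor core AGGTCA, its longer form TNAAGGTCA, the cAMP response element core TGACG and the C/EBP-type site TTGCNNAA.
Ucp1, chr8:83290098-83290347, plus strand: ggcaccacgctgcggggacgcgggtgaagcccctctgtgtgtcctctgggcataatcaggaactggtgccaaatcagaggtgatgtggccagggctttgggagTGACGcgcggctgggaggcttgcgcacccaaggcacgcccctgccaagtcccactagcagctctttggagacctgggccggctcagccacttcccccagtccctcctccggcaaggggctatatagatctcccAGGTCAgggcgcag
Dio2, chr12:90739039-90739288, minus strand: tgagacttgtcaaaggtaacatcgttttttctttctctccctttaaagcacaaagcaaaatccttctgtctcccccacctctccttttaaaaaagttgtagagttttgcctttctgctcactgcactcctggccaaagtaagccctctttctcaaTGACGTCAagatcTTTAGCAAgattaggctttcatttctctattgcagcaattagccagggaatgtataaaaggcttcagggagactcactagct
The Ucp1 window held 1 match to TGACG, 147 to 143 bases before the start, and 1 to AGGTCA, 14 to 9 bases before it. The Dio2 window held TGACG on both strands as overlapping matches, at 95 to 91 and 92 to 88 bases before the start, and TTGCNNAA on the opposite strand at 82 to 75 bases. Among 32536 promoter windows of this length, 17.9% held TGACG, 14.0% AGGTCA, 9.6% TTGCNNAA and 1.1% TNAAGGTCA. The windows of Cox8b, Cox7a1 and Prdm16 held none of the 4. For Cidea and Elovl3 no window is given. These matches describe letters only.

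Sirt1 itself, whose probe set cannot check the labels because its place in the gene is not given, spanned 8.30 to 8.93 in high fat knockout, 8.85 to 9.10 in high fat wild-type, 8.94 to 9.44 in low fat knockout and 9.02 to 9.88 in low fat wild-type arrays. Skeletal muscle transcripts were uneven. All 20 muscle markers listed were measured, and their summed level spanned 11.9 to 12.7 in high fat knockout, 12.1 to 13.1 in high fat wild-type, 11.6 to 13.7 in low fat knockout and 11.1 to 13.8 in low fat wild-type tissue. Tnnt3, a fast troponin, reached 8 or more in 5 arrays, which were high fat knockout replicate 4, high fat wild-type replicate 3, low fat knockout replicate 2 and low fat wild-type replicates 3 and 4. The epithelial keratin Krt18 stood at 12.7 in high fat wild-type replicate 4, and every other array lay between 5.99 and 9.02. Cdh1, another epithelial marker, stood at 10.3 in that array. It stood at 7.10 in low fat knockout replicate 4 and 4.98 in high fat wild-type replicate 1, and between 2.10 and 3.40 elsewhere. Epcam stood at 6.75 in high fat wild-type replicate 4 and 4.66 in low fat knockout replicate 4. The part of epithelial cells in the values of the 7 genes was not tested. White fat markers were high throughout, with a summed level of 15.7 or more in each array over 11 of 11 measured markers.

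Diet moved most of the 7 genes in the same direction in both genotypes. Ucp1 was 21.8-fold lower with high fat feeding in knockout and 12.6-fold lower in wild-type tissue, Cidea 45.3-fold and 15.5-fold lower, and Cox8b 3.27-fold and 3.15-fold lower. In knockout tissue 6 of the 7 genes fell and 0 rose, where 13.5% of all genes tested fell (29.2% changed in either direction). In wild-type fat 4 of 7 fell and 0 rose, where 15.2% of all genes fell (35.6% changed). The median difference of the 7 genes was -1.71 in knockout and -1.65 in wild-type fat, against -0.02 and 0.04 over all genes tested. The diet groups did not overlap for 5 of the 7 genes in knockout and for 2 in wild-type tissue, all with the high fat arrays below, where 15.5% and 13.1% of all genes did so. Elovl3 and Dio2 reached the filter level only in low fat arrays, so a fall of theirs was partly fixed by the filter. Without them, 4 of 5 genes fell in knockout and 3 of 5 in wild-type tissue, and the diet groups were apart for 3 and 2. Markers of other cell types moved with diet in the same arrays. Of 10 mesothelial markers, 9 fell in knockout and 1 in wild-type tissue (7 and 3 without the 5 arrays rich in Tnnt3), with summed levels of 10.7 to 11.8 in high fat knockout, 12.3 to 13.4 in high fat wild-type, 12.5 to 12.9 in low fat knockout and 11.8 to 13.0 in low fat wild-type arrays. Falls over all genes numbered 982 in knockout and 917 in wild-type tissue without the 5 arrays, against 1636 and 1832 with them. Of 10 macrophage markers, 7 rose in each genotype, and of 11 white fat markers 2 fell and 0 rose in knockout and 3 fell and 2 rose in wild-type tissue. Their part in the values of the 7 genes was not tested. In bulk tissue, fewer cells of a type and less RNA per cell cannot be told apart.

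**Figure D1:**
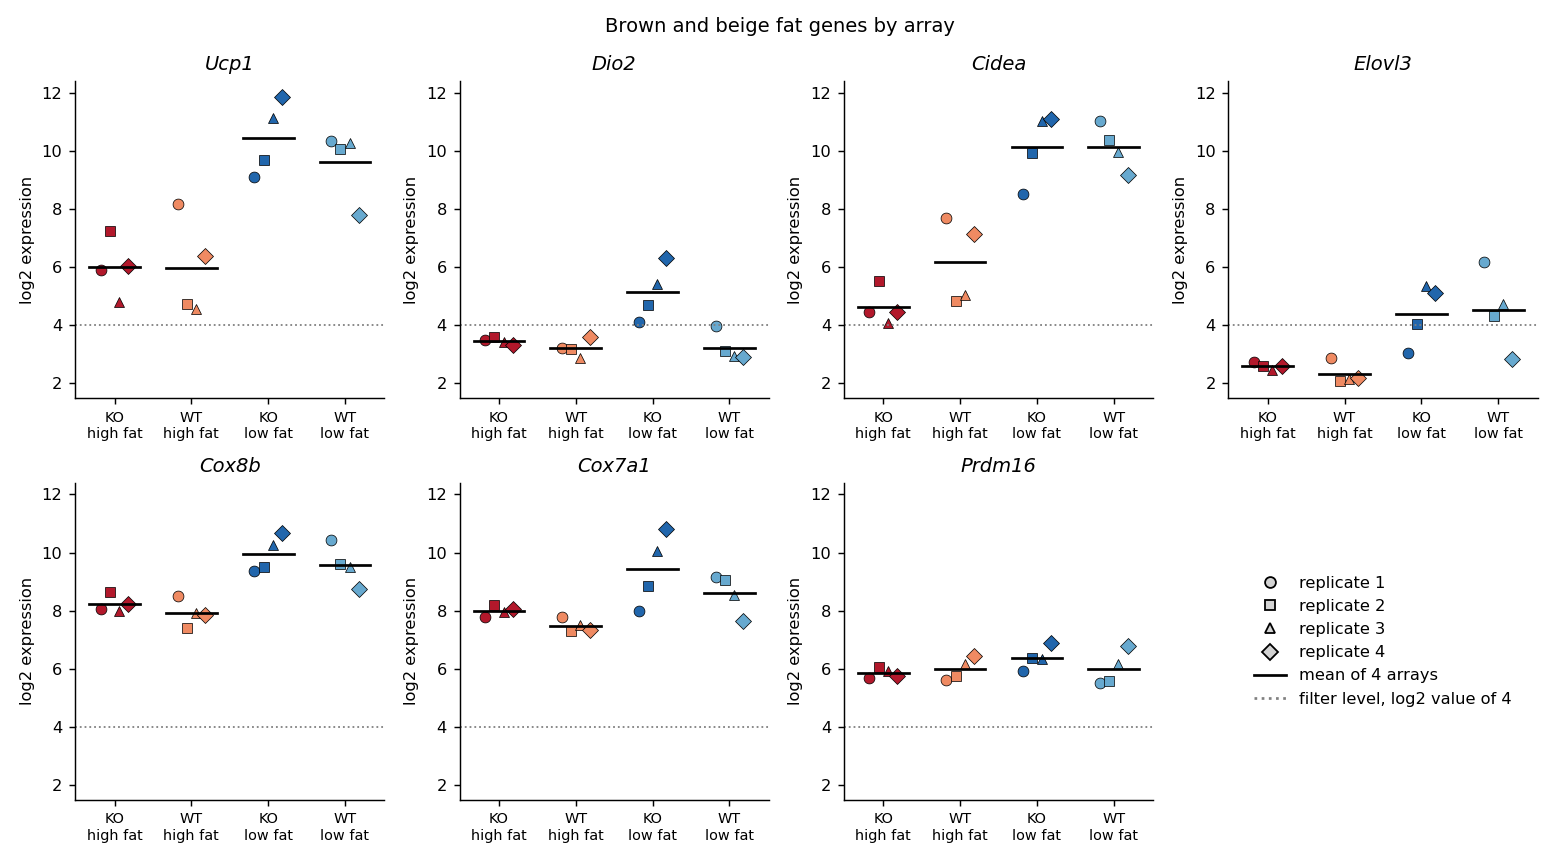
Log2 expression of the 7 genes, each by its brightest probe set, in the 16 arrays. Columns are the 4 groups, symbols are the 4 replicates, bars are group means and the dotted line is the filter level of 4. Ucp1 and Cidea lie far lower on the high fat diet in both genotypes, and Dio2 reaches 4 only in the 4 low fat knockout arrays.

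Ucp1 (probe set 1418197_at), which dissipates the proton gradient of mitochondria as heat, stood at 5.90, 7.23, 4.81 and 6.04 in the 4 high fat knockout arrays, against 9.10, 9.68, 11.12 and 11.84 in the low fat knockout arrays. It stood at 8.19, 4.74, 4.57 and 6.37 in the high fat wild-type arrays, against 10.35, 10.05, 10.27 and 7.80 in the low fat wild-type arrays. The diet groups did not overlap in knockout fat. In wild-type fat they did, because replicate 1 of the high fat group was above replicate 4 of the low fat group. The difference was -4.44 ± 0.81 (SE, adjusted p = 0.000721) in knockout fat and -3.65 ± 0.81 (adjusted p = 0.00257) in wild-type fat. The fall kept its call in both genotypes when any single array was left out, with adjusted p up to 0.0109. It also did so without the 5 arrays rich in Tnnt3, where it was -4.71 in knockout and -3.77 in wild-type fat.

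Cidea (1417956_at), a lipid droplet protein that enlarges droplets and is abundant in brown fat, had the steepest fall of the 7. High fat knockout arrays gave 4.46, 5.53, 4.07 and 4.46, against 8.50, 9.91, 11.03 and 11.09 in low fat knockout arrays. High fat wild-type arrays gave 7.68, 4.83, 5.04 and 7.15, against 11.01, 10.36, 9.97 and 9.15 in low fat wild-type arrays. No high fat array reached any low fat array in either genotype. The difference was -5.50 ± 0.66 (adjusted p = 2.1e-05) in knockout and -3.95 ± 0.66 (adjusted p = 0.000302) in wild-type fat. The high fat arrays spread over 1.47 log2 units in knockout and 2.85 in wild-type tissue.

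Cox8b and Cox7a1 encode the muscle and brown fat isoforms of 2 subunits of cytochrome c oxidase, the last complex of the respiratory chain. Cox8b (1449218_at) stood at 8.07, 8.65, 8.00 and 8.23 in high fat knockout tissue, against 9.37, 9.52, 10.25 and 10.66 in low fat knockout tissue. It stood at 8.51, 7.42, 7.91 and 7.84 in high fat wild-type tissue, against 10.42, 9.61, 9.51 and 8.75 in low fat wild-type tissue. The diet groups were apart in both genotypes, with differences of -1.71 ± 0.34 (adjusted p = 0.00124) in knockout and -1.65 ± 0.34 (adjusted p = 0.00132) in wild-type fat.
Cox7a1 (1418709_at) stood at 7.78, 8.19, 7.96 and 8.05 in high fat knockout tissue, against 8.00, 8.84, 10.05 and 10.80 in low fat knockout tissue. It stood at 7.79, 7.31, 7.49 and 7.35 in high fat wild-type tissue, against 9.14, 9.05, 8.56 and 7.65 in low fat wild-type tissue. The groups overlapped in both genotypes. The difference of -1.43 ± 0.45 passed in knockout fat (adjusted p = 0.0262), and the difference of -1.11 ± 0.45 in wild-type fat did not (adjusted p = 0.066). The call in knockout fat depended on single arrays: the adjusted p was 0.085 without low fat replicate 3, 0.0786 without low fat replicate 4, 0.0662 without high fat replicate 1 and 0.0528 without high fat replicate 3. It was 0.0504 with the other genotype left out of the fit. In wild-type fat it passed without low fat replicate 4 (-1.43, adjusted p = 0.0247), without low fat knockout replicate 1 (adjusted p = 0.0255) or without low fat knockout replicate 4 (adjusted p = 0.0265). It also passed with the muscle level as a covariate (adjusted p = 0.0253), with the other genotype left out of the fit (adjusted p = 0.0222), and after median centring (0.0463) or quantile normalisation (0.0471) of the arrays.

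Elovl3 (1420722_at), an elongase of saturated and monounsaturated very long chain fatty acids that cold induces in brown fat, lay near the low end of the scale. High fat knockout arrays gave 2.73, 2.60, 2.48 and 2.60, against 3.06, 4.05, 5.34 and 5.13 in low fat knockout arrays. High fat wild-type arrays gave 2.88, 2.07, 2.16 and 2.17, against 6.19, 4.34, 4.73 and 2.85 in low fat wild-type arrays. It passed the filter only through 6 arrays, all on the low fat diet, so a fall with the high fat diet was partly fixed by that filter. The deposited values gave -1.79 ± 0.55 in knockout (adjusted p = 0.0227) and -2.20 ± 0.55 in wild-type fat (adjusted p = 0.0056). With values under 4 set to 4 the differences shrank to -0.63 (adjusted p = 0.231) and -0.81 (adjusted p = 0.106), and the call was lost in both. In knockout fat the call was also lost without low fat replicate 3 (adjusted p = 0.0803) or low fat replicate 4 (adjusted p = 0.0634).

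Dio2 encodes the deiodinase that turns thyroxine into active thyroid hormone inside brown adipocytes. Its brightest probe set (1418937_at) gave 3.48, 3.60, 3.44 and 3.32 in high fat knockout tissue and 3.22, 3.19, 2.88 and 3.61 in high fat wild-type tissue. It gave 4.12, 4.70, 5.40 and 6.32 in low fat knockout and 3.98, 3.13, 2.94 and 2.91 in low fat wild-type tissue. The 4 low fat knockout arrays were the only ones at 4 or more, and all 4 lay above every array of the other groups. The gene therefore entered the test through the group in which it is high. Low fat knockout tissue exceeded low fat wild-type tissue by 1.90 ± 0.35 (adjusted p = 0.00171), or by 1.14 with values under 4 set to 4 (adjusted p = 0.0165). The diet difference was -1.68 ± 0.35 in knockout fat (adjusted p = 0.00208), or -1.14 with the floor (adjusted p = 0.0101), and -0.01 ± 0.35 in wild-type fat (adjusted p = 0.981). The other 2 Dio2 probe sets stayed under 4 in all 16 arrays, and their highest values, 3.22 and 3.19, were both in low fat knockout replicate 4.

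Prdm16, a zinc finger coregulator that steers progenitors towards the brown adipocyte fate, did not pass for diet by its brightest probe set. That probe set (1440745_at) gave 5.67, 6.05, 5.92 and 5.76 in high fat knockout and 5.63, 5.76, 6.16 and 6.44 in high fat wild-type tissue. It gave 5.94, 6.36, 6.34 and 6.87 in low fat knockout and 5.52, 5.58, 6.16 and 6.78 in low fat wild-type tissue. The 4 groups overlapped, and the diet difference was -0.53 ± 0.26 in knockout (adjusted p = 0.144) and -0.01 ± 0.26 in wild-type fat (adjusted p = 0.975). The interval of the wild-type difference ran from -0.57 to 0.54. With the replicate number as a block the knockout difference passed at an adjusted p of 0.049.
A second Prdm16 probe set (1440870_at) gave 4.84, 4.88, 4.55 and 4.81 in high fat knockout and 4.32, 4.13, 4.59 and 4.72 in high fat wild-type tissue. It gave 5.18, 5.10, 5.42 and 5.35 in low fat knockout and 4.30, 4.83, 4.88 and 4.95 in low fat wild-type tissue. On the low fat diet the knockout arrays were all above the wild-type arrays, and in knockout fat the low fat arrays were all above the high fat arrays. Tested over the 25560 probe sets that passed the filter, it was lower in high fat than in low fat knockout tissue (-0.49, adjusted p = 0.0297) and higher in low fat knockout than in low fat wild-type tissue (0.53, adjusted p = 0.0309). In these 2 comparisons the 2 probe sets disagreed on the call, though not on the sign, and the other 2 stayed under 4 in every array. Over the 8 probe sets tested, 7 passed for diet in knockout fat and 4 in wild-type fat, against 27.7% and 35.4% of all probe sets, and 2 passed for genotype on the low fat diet, against 18.1%.

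**Figure D2:**
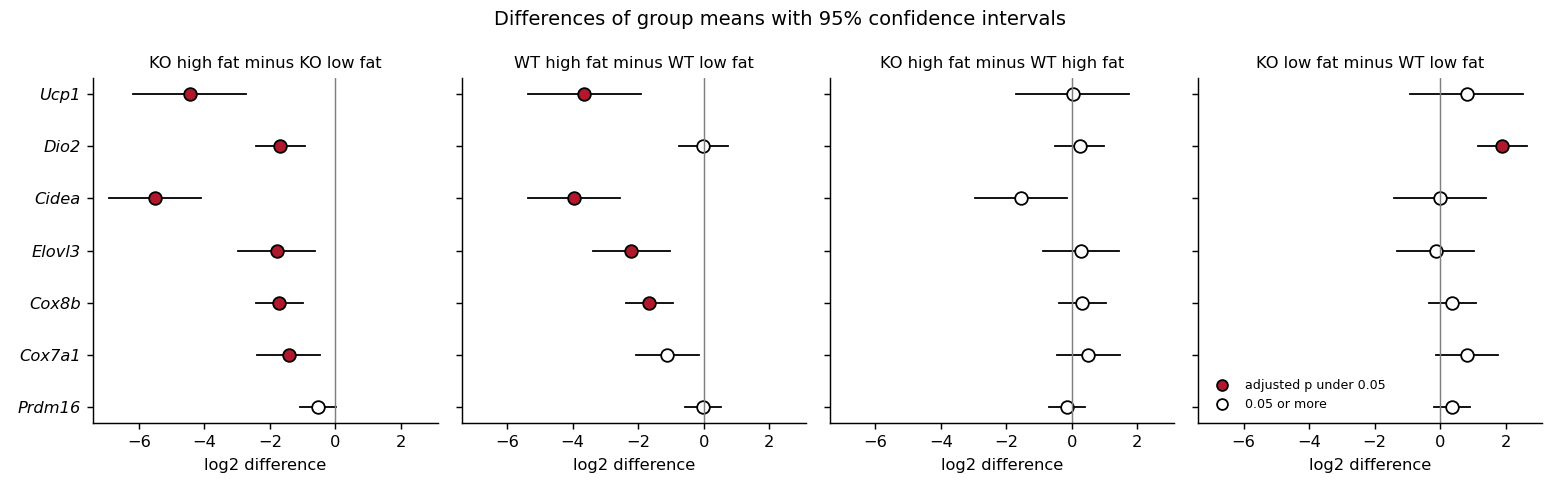
Differences of group means in log2 units for the 7 genes in 4 comparisons, in the order each panel's title gives, with 95% confidence intervals. Filled points passed at an adjusted p under 0.05. The diet panels hold 6 filled points in knockout and 4 in wild-type fat, and the genotype panels hold 1, Dio2 on the low fat diet.

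Between genotypes 1 of the 7 genes passed the test. On the low fat diet Dio2 rose and 0 fell, where 11.7% of all genes tested rose (18.9% changed), and its groups did not overlap, as for 11.8% of all genes. The other 6 differences on the low fat diet did not pass and lay between -0.13 (Elovl3, interval -1.30 to 1.04) and 0.82 (Cox7a1, -0.14 to 1.78, and Ucp1, -0.90 to 2.55). Cidea differed by 0.01 (-1.40 to 1.42) and Cox8b by 0.38 (-0.33 to 1.09). Without low fat knockout replicate 1, the Cox7a1 difference was 1.30 and passed (adjusted p = 0.0411). Without the 5 arrays rich in Tnnt3 the Dio2 difference was 1.73 and no longer passed (adjusted p = 0.0544), with 3 knockout and 2 wild-type arrays left in the comparison. With the muscle level as a covariate it was 1.83 (adjusted p = 0.00106).

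On the high fat diet 0 of the 7 genes passed in limma, where 15.1% of all genes tested did, and 1 had an unadjusted p under 0.05. That gene was Cidea, at 4.63 ± 0.63 in high fat knockout and 6.17 ± 1.45 in high fat wild-type tissue (SD, n = 4 each), a difference of -1.54 (interval -2.95 to -0.14, adjusted p = 0.131). Ucp1 differed by 0.03, with an interval of -1.70 to 1.75. Cox7a1 averaged 7.99 ± 0.17 in high fat knockout and 7.49 ± 0.22 in high fat wild-type tissue, and its difference of 0.51 passed only when the low fat groups were left out of the fit (adjusted p = 0.0289, against 0.497 with them). Mesothelial markers differed between the same groups: 9 of 10 were lower in high fat knockout than in high fat wild-type tissue (3 without the 5 arrays), without overlap in the summed levels given above. Of 10 macrophage markers, 5 were higher in high fat knockout than in high fat wild-type tissue (5 without the 5 arrays), with summed levels of 14.7 to 14.9 in high fat knockout and 14.0 to 14.5 in high fat wild-type tissue. Over all genes tested, 782 were lower and 1036 higher in this comparison, against 317 and 497 without the 5 arrays. Their part in the values of the 7 genes was not tested.

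The test of whether the diet effect differed between genotypes gave 1 call among the 7, Dio2, with a difference of diet effects of -1.66 ± 0.50 (knockout minus wild type, adjusted p = 0.0386), where 13% of all genes tested passed. The adjusted p was 0.0522 without the filter, 0.0872 with values under 4 set to 4, 0.0907 after quantile normalisation, 0.0605 with the replicate number as a block and 0.217 without the 5 arrays rich in Tnnt3. Leaving out 1 of the 16 arrays at a time gave an adjusted p between 0.0112 and 0.0749. The call ended in 10 of these cases, with an adjusted p of 0.0533 or more. For Cidea the difference of diet effects was -1.55 (interval -3.54 to 0.44) and for Ucp1 -0.79 (-3.23 to 1.65). The 4 comparisons share arrays in pairs, so their values are given side by side and not as independent evidence.

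Within a group, the same arrays were high or low for most of the genes. This was counted over Ucp1, Cidea, Cox8b, Cox7a1 and Elovl3, of which Elovl3 was under 4 in every high fat array. Of the high fat knockout arrays, replicate 3 was the lowest and replicate 2 the highest, each in 4 of 5 genes. Of the high fat wild-type arrays, replicate 2 was the lowest in 4 of 5 and replicate 1 the highest in 5 of 5. In low fat knockout tissue, replicate 1 was the lowest in 5 of 5 and replicate 4 the highest in 4 of 5. In low fat wild-type tissue, replicate 4 was the lowest and replicate 1 the highest, each in 5 of 5. Dio2 had the same lowest and highest array as these genes in both low fat groups and was under 4 in both high fat groups. Prdm16 ran the other way in low fat wild-type tissue, lowest in replicate 1 and highest in replicate 4. In high fat wild-type tissue it was lowest in replicate 1, the highest array of the 5 genes. It was highest there in replicate 4, which was the lowest array of none of them. In both knockout groups Prdm16 was also lowest in replicate 1, and it was highest in replicate 4 on low fat and in replicate 2 on high fat. Summed muscle levels of the lowest arrays were 11.9 in high fat knockout replicate 3 and 12.2 in high fat wild-type replicate 2. They were 12.1 in low fat knockout replicate 1 and 13.6 in low fat wild-type replicate 4. The highest arrays had 11.95 (high fat knockout replicate 2), 12.1 (high fat wild-type replicate 1), 12.2 (low fat knockout replicate 4) and 11.1 (low fat wild-type replicate 1). Among the highest arrays, Cdh1 stood at 7.10 in low fat knockout replicate 4 and 4.98 in high fat wild-type replicate 1. It stood at 2.40 in low fat wild-type replicate 1 and 2.63 in high fat knockout replicate 2.

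Deviations from the group means were correlated over the 16 arrays for the 21 pairs of genes, with p-values from 100000 permutations within groups, adjusted over the 21 pairs. Ucp1 and Cidea had r = 0.918 (Spearman's rho = 0.903, adjusted permutation p = 0.00115 for r and 0.00084 for rho), and r = 0.904 without the 2 arrays farthest from the median of Ucp1. Cox8b and Cox7a1 had r = 0.848 (rho = 0.926, adjusted permutation p = 0.00084 and 0.00063), and 0.848 without 2 arrays. Ucp1 and Cox8b had r = 0.849 (rho = 0.853, adjusted permutation p = 0.00147 and 0.00535), and 0.76 without 2 arrays. Pairs with Dio2 or Elovl3 rest partly on values under 4, which depend on the background correction. Elovl3 was under 4 in every high fat array, and Dio2 in all arrays but the 4 of low fat knockout tissue. All 15 pairs among the 6 genes other than Prdm16 passed on r. Among these, Dio2 paired with Cox8b, Cox7a1 and Elovl3 no longer passed without the 2 arrays (r = 0.716, 0.608 and 0.76, adjusted permutation p = 0.0879, 0.216 and 0.171), and on rho Cox8b with Dio2, Cox7a1 with Dio2 and Cox7a1 with Elovl3 did not pass (adjusted permutation p = 0.0554, 0.106 and 0.0523).
Over the 16 arrays the pairs with Prdm16 did not pass. Its 6 correlations lay between -0.313 and 0.209, and each changed sign without 2 arrays: with Ucp1 from -0.152 over 16 arrays to 0.631 over 14, and with Cox7a1 from 0.008 to -0.666. Both of these passed over 14 arrays (adjusted permutation p = 0.0492 for each), with opposite signs and with different arrays left out, and the other 4 did not.
Against the summed muscle level, the other 6 genes had r between -0.54 (Cox8b) and -0.354 (Cidea) and Prdm16 had 0.592. None of the 7 passed (adjusted permutation p = 0.275 for each r), and 0 had an unadjusted p under 0.05. Spearman's rho lay between -0.529 and -0.244 for the 6 genes and was 0.644 for Prdm16. Without the 2 arrays farthest from the median of the muscle level, r lay between -0.673 and -0.297 for the 6 genes and was 0.762 for Prdm16, with adjusted permutation p between 0.214 and 0.391. For Cox8b and Cox7a1, which muscle expresses as well, r was -0.54 and -0.457.

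**Figure D3:**
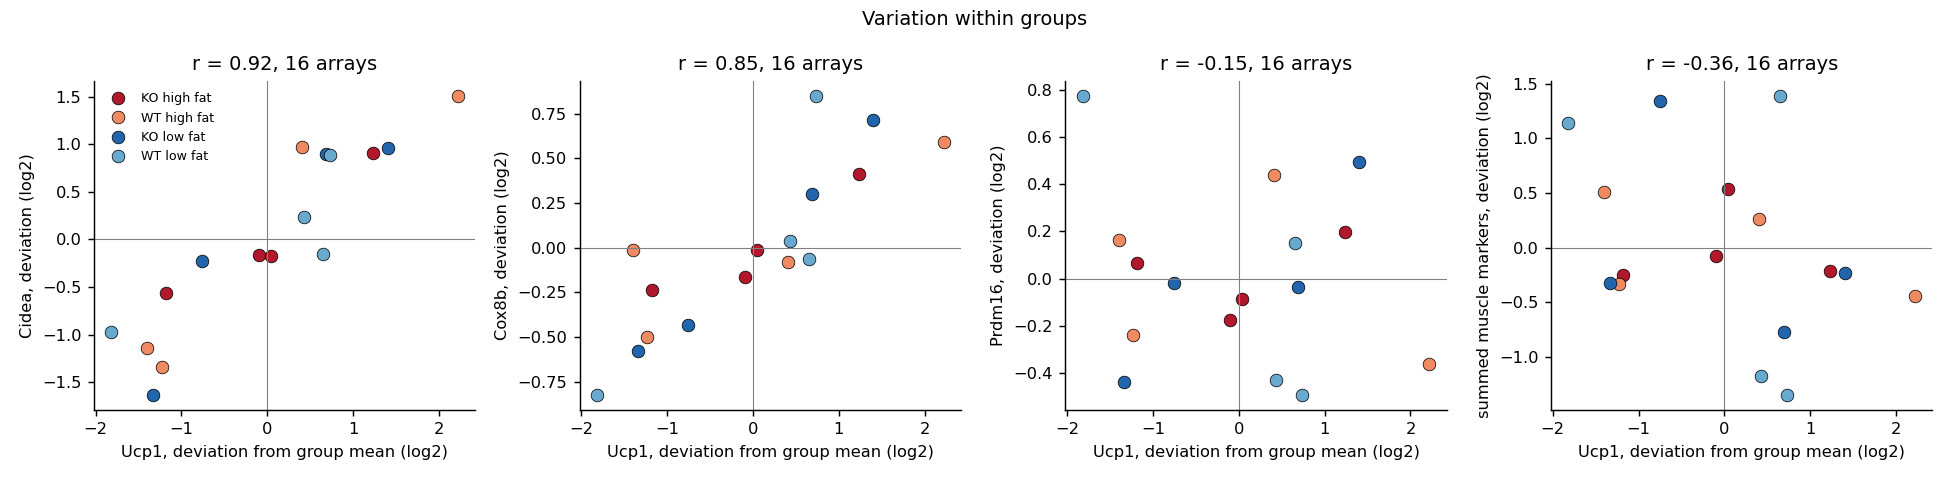
Deviation of each array from its group mean in log2 units, for Ucp1 on the horizontal axis and for Cidea, Cox8b, Prdm16 and the summed muscle markers on the vertical axes, with Pearson's r over 16 arrays above each panel. Points are arrays coloured by group. Arrays high for Ucp1 are high for Cidea and Cox8b, with r = 0.918 and 0.849, against -0.152 for Prdm16 and -0.362 for the muscle level.

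Paralogs show whether the fall with diet was shared within each gene family. Of 17 paralogs with a probe set of their own, 11 were tested, and diet lowered 2 and raised 1 in each genotype. Of all genes tested, 29.2% changed in knockout and 35.6% in wild-type fat. High fat arrays lay below all low fat arrays for 2 of the 11 in knockout and 4 in wild-type fat. Over all genes this held for 15.5% and 13.1%. For 1 paralog in knockout fat they lay above. Cox8a and Cox7a2, the widely expressed forms of the same oxidase subunits, differed by -0.28 and -0.18 in knockout and by -0.39 and -0.25 in wild-type fat, and neither passed. Cidec, the lipid droplet protein of white adipocytes, differed by -0.03 in knockout and -0.16 in wild-type fat and did not pass. In wild-type fat every high fat array lay below every low fat array for Cidec (13.42 at most against 13.44) and Cox8a (10.59 against 10.62). Ucp3, the uncoupling protein of muscle and brown fat, fell by 0.96 (adjusted p = 0.0107) in knockout and by 1.41 (adjusted p = 0.000584) in wild-type fat. Elovl6, an elongase of the lipogenic pathway, fell by 3.86 (adjusted p = 2.38e-05) in knockout and by 2.36 (adjusted p = 0.00126) in wild-type fat. Elovl1 rose by 0.63 in knockout fat (adjusted p = 0.0117), and Cpt1a, the liver form of the enzyme that feeds fatty acids into mitochondria, rose by 0.62 in wild-type fat (adjusted p = 0.0271). Between low fat knockout and low fat wild-type tissue Cpt1a rose by 0.68 (adjusted p = 0.0286) and Ucp3 fell by 0.99 (adjusted p = 0.0144), and neither passed without the 5 arrays rich in Tnnt3 (adjusted p = 0.259 and 0.141). After median centring Cpt1a passed neither here (adjusted p = 0.0541) nor for diet in wild-type fat (0.0659), and its diet call also ended without the 5 arrays (0.259). Mecom, the closest relative of Prdm16, passed only in the test of the difference of diet effects (-0.99, adjusted p = 0.0305), and not without the 5 arrays (-1.18, adjusted p = 0.0881) or with the mean of its probe sets (-0.35, adjusted p = 0.0917). Elovl5, Cox7a2l and Cpt1c passed in none of the 5 tests.

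**Figure D4:**
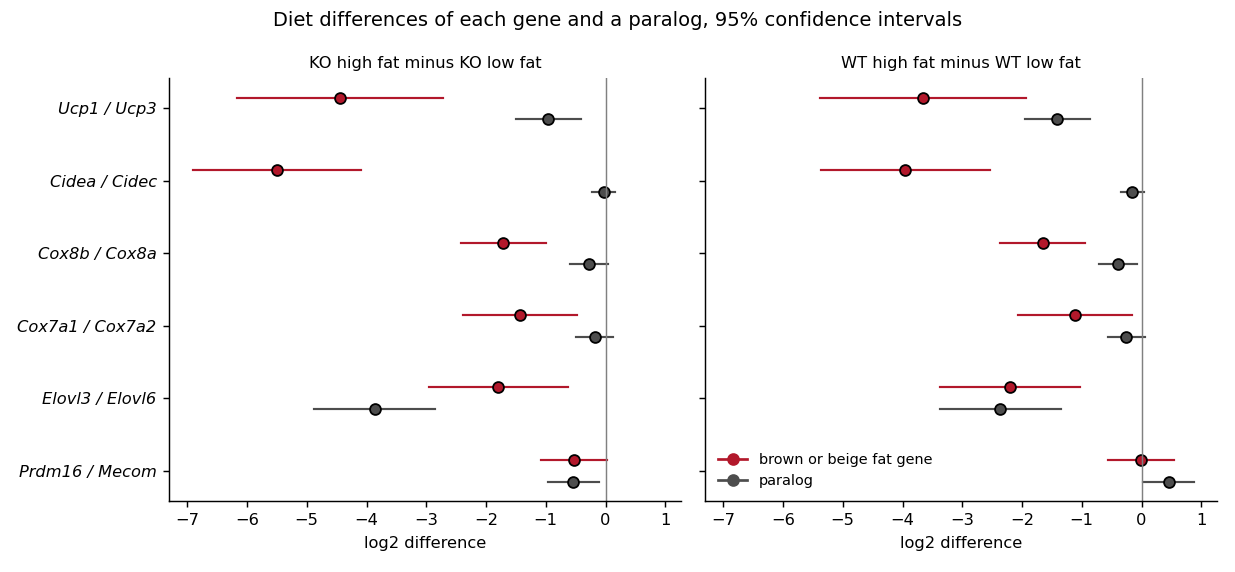
Difference of high fat minus low fat diet, in log2 units with 95% confidence intervals, for 6 of the 7 genes and 1 paralog of each, in knockout and in wild-type fat. Differences of Cidec, Cox8a and Cox7a2 are smaller than those of Cidea, Cox8b and Cox7a1, of which Cox7a1 did not pass in wild-type fat. Elovl6 and Elovl3 both lie below 0. The fall of Elovl3 was partly fixed by the filter and lost its call with values under 4 set to 4. Levels of different probe sets are not compared.

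Of the regulators of the brown programme, 17 were tested. Of these, 4 fell with the high fat diet and 1 rose in knockout fat and 7 fell and 2 rose in wild-type fat. Of all genes tested, 13.5% fell and 15.6% rose in knockout and 15.2% fell and 20.5% rose in wild-type fat, so the shares that rose were no higher than over all genes. Their median difference was -0.33 in knockout and -0.21 in wild-type fat. Irf4, a cAMP-induced partner of the coactivator PGC-1α, fell by 2.23 (adjusted p = 3.39e-05) in knockout and by 2.47 (adjusted p = 1.3e-05) in wild-type fat. Ppara, a fatty acid receptor that drives oxidation genes, fell by 1.87 (adjusted p = 0.000296) and by 2.31 (adjusted p = 4.3e-05). Pparg, the master regulator of adipocytes, fell by 0.98 in wild-type fat (adjusted p = 0.000155).
Between low fat knockout and low fat wild-type tissue 3 of these 17 fell and 2 rose, where 7.24% of all genes fell and 11.7% rose, and without the 5 arrays rich in Tnnt3 1 fell and 1 rose. Over all genes tested, 238 fell and 607 rose without the 5 arrays, against 874 and 1410 with them. Irf4 was lower by 1.38 (adjusted p = 0.00364) and Pparg by 0.72 (adjusted p = 0.0038), and Pparg no longer passed without the 5 arrays (adjusted p = 0.0991). Esrrg, an orphan receptor of oxidative tissues, was higher, at 4.88 ± 0.63 in low fat knockout and 3.03 ± 0.14 in low fat wild-type tissue (SD, n = 4 each), a difference of 1.84 (adjusted p = 0.000347) that was 0.88 with values under 4 set to 4. On the high fat diet 1 rose and 1 fell, where 8.58% of all genes rose and 6.47% fell. The one that fell was Irf4, by 1.14 (adjusted p = 0.0138), or by 0.48 with the mean of its probe sets (adjusted p = 0.275).

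Of 19 enzymes, transporters and secreted factors of brown adipocytes tested, 6 fell and 1 rose with the high fat diet in knockout fat and 12 fell and 2 rose in wild-type fat. Of all genes tested, 13.5% fell and 15.6% rose in knockout and 15.2% fell and 20.5% rose in wild-type fat. Without the 5 arrays rich in Tnnt3 the falls in this list numbered 3 and 4. Falls over all genes then numbered 982 in knockout and 917 in wild-type fat, against 1636 and 1832 with the 5 arrays. Nrg4, a growth factor secreted by brown fat, fell by 1.82 (adjusted p = 2.96e-06) in knockout and by 1.12 (adjusted p = 0.000146) in wild-type fat. Aspg fell by 2.29 in wild-type fat (adjusted p = 0.000318) and Ntrk3 by 1.94 in knockout fat (adjusted p = 7.1e-05). Aspg reached the filter level only in low fat arrays, so its fall, counted above, was partly fixed by the filter. S100b, a calcium-binding protein linked to sympathetic innervation of brown fat, went the other way: it rose by 2.02 with high fat feeding in wild-type tissue (adjusted p = 7.85e-07) and was 2.18 higher in low fat knockout than in low fat wild-type tissue (adjusted p = 8.6e-07), and its difference of diet effects was -2.47 (adjusted p = 1.96e-05).

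For cAMP signalling, the probe sets of the beta-adrenergic receptors were not analysed here, and of the 14 genes tested 4 fell and 1 rose with diet in knockout fat and 3 fell in wild-type fat. Of all genes tested, 29.2% changed in knockout and 35.6% in wild-type fat, and 13.5% and 15.2% fell. Without the 5 arrays rich in Tnnt3, 2 of the 14 fell in knockout and 3 in wild-type fat, and 0 rose. Falls over all genes then numbered 982 and 917, against 1636 and 1832 with the 5 arrays. Pde4d and Pde3b, phosphodiesterases that degrade cAMP, fell by 1.10 and 0.69 in knockout (adjusted p = 5.06e-05 and 0.000159) and by 1.14 and 0.67 in wild-type fat (adjusted p = 3.42e-05 and 0.000179). Sik2, a kinase that restrains cAMP-driven transcription, fell by 0.42 in knockout (adjusted p = 0.0121, and 0.0577 without the 5 arrays) and by 0.48 in wild-type fat (adjusted p = 0.00414). Adcy3, an adenylyl cyclase, rose by 0.74 in knockout fat (adjusted p = 0.0225) and was higher in high fat knockout than in high fat wild-type tissue by 0.95 (adjusted p = 0.0107), and neither difference passed without the 5 arrays.
Of 4 genes of thyroid hormone handling, 2 fell in each genotype (2 in knockout and 1 in wild-type fat without the 5 arrays, where Thra in wild-type fat no longer passed). Over all genes tested, 13.5% fell in knockout and 15.2% in wild-type fat. These were 1636 and 1832 genes, against 982 and 917 without the 5 arrays. Thrsp, a thyroid hormone-responsive gene of lipogenesis, fell by 0.66 (adjusted p = 0.014) in knockout and by 0.99 (adjusted p = 0.000729) in wild-type fat, and the receptor Thra by 0.60 (adjusted p = 0.00262) and 0.43 (adjusted p = 0.0177).
Of 11 markers proposed for beige adipocytes, Tbx1 and Cited1 were under 4 in every array, 7 were tested, and in knockout fat 0 passed for diet in limma, 0 also at an unadjusted p under 0.05. In wild-type fat Epsti1 rose by 1.24 (adjusted p = 0.00736) and Slc27a1 fell by 0.47 (adjusted p = 0.00984), and neither passed without the 5 arrays. Over all genes tested, 29.2% changed with diet in knockout and 35.6% in wild-type fat.

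Several genes of heat production that does not use UCP1 rose on the high fat diet. Of 7 tested in the creatine, calcium and N-acyl amino acid pathways, 4 rose and 0 fell with the high fat diet in knockout fat and 5 rose and 0 fell in wild-type fat, where 15.6% and 20.5% of all genes tested rose. Without the 5 arrays rich in Tnnt3, 4 rose in each genotype. Rises over all genes then numbered 1359 in knockout and 1650 in wild-type fat, against 1887 and 2472 with the 5 arrays. Gamt, which makes creatine, rose by 1.38 (adjusted p = 8.74e-05) in knockout and by 2.35 (adjusted p = 8.07e-07) in wild-type fat. Gatm, which makes its precursor, rose by 1.33 (adjusted p = 0.00287) and by 1.08 (adjusted p = 0.0092), and in wild-type fat no longer passed without the 5 arrays (0.87, adjusted p = 0.0731). The creatine kinase Ckb rose by 1.80 (adjusted p = 0.000278) and by 1.27 (adjusted p = 0.00327). Pm20d1, a secreted enzyme that makes N-acyl amino acids, rose by 1.57 in wild-type fat (adjusted p = 0.000277). Alpl, a phosphatase named after its values were seen, was the remaining rise in wild-type fat (0.81, adjusted p = 0.0369). It passed neither after median centring (adjusted p = 0.0548) nor after quantile normalisation (0.0666). Its high fat wild-type arrays gave 6.11, 6.21, 6.06 and 7.71, and those of Ckb 9.10, 9.38, 8.91 and 10.27. Both were highest in replicate 4, the array with the highest Krt18 and Cdh1, and the part of epithelial cells was not tested. Between low fat knockout and low fat wild-type tissue Gamt was higher by 1.94 (adjusted p = 1.06e-05) and Pm20d1 by 1.73 (adjusted p = 0.000342). These genes are not specific to adipocytes. Macrophage markers rose with diet over the same arrays, 7 of 10 in each genotype, with summed levels of 14.7 to 14.9 in high fat knockout, 14.0 to 14.5 in high fat wild-type, 14.0 to 14.2 in low fat knockout and 13.5 to 14.0 in low fat wild-type tissue. Of the 10, 3 were also higher in low fat knockout than in low fat wild-type tissue (1 without the 5 arrays). Over all genes 1410 were higher there, against 607 without the 5 arrays. Their part in these results was not tested.

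**Figure D5:**
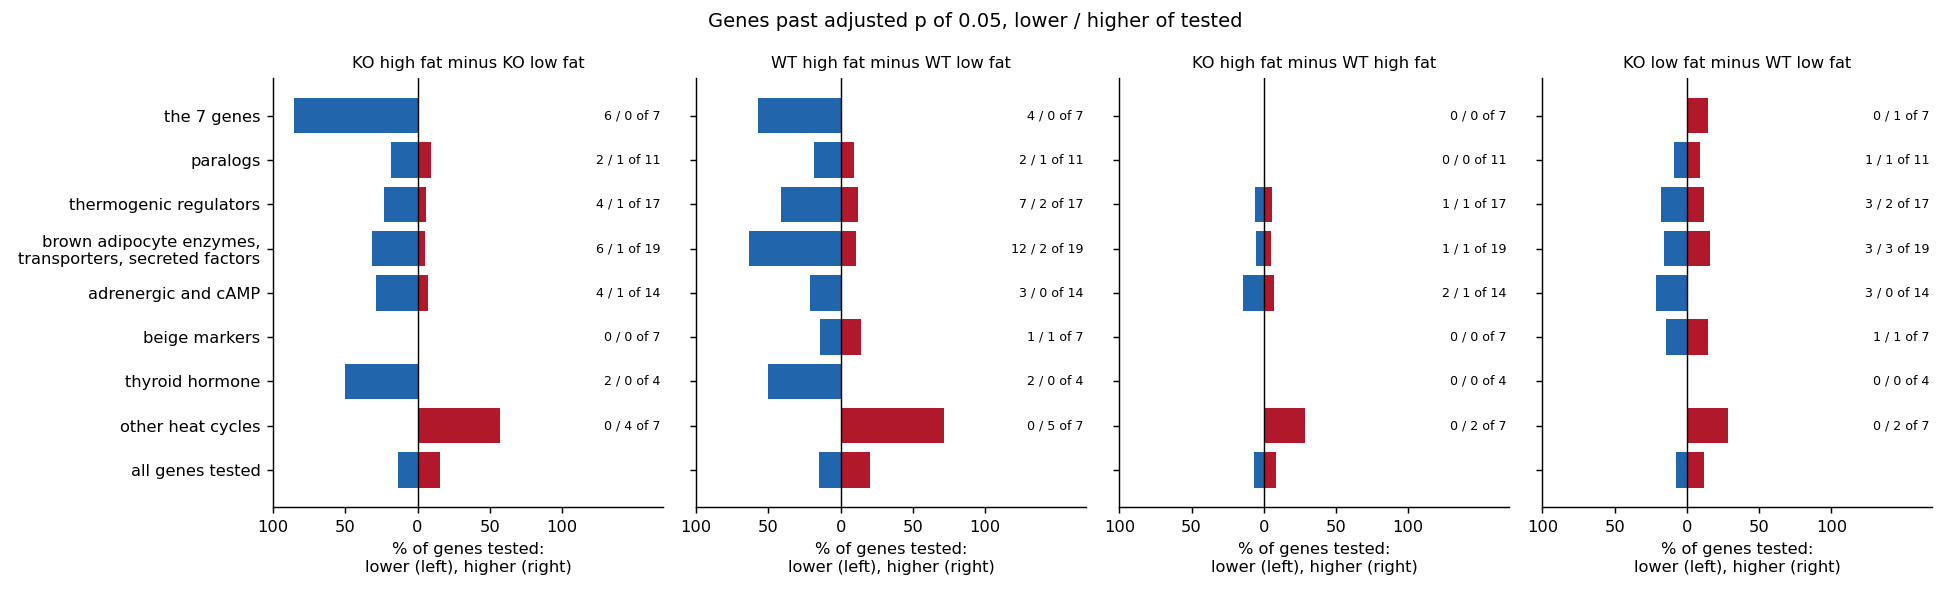
Share of the genes tested in each list that passed at an adjusted p under 0.05, lower to the left in blue and higher to the right in red, in 4 comparisons. The numbers are lower, higher and tested genes. Of the 7 genes, 6 and 4 lie to the left in the diet panels, and the other heat cycles have genes that rose in each of the 4.

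The genes whose pattern was most like that of each member, by Pearson's r over the 16 arrays among the 12078 genes tested, were partly other members. These values include the differences between groups and describe likeness only. Ucp1 was most like Cox8b (r = 0.959), Cidea (0.946) and Uqcrc2 (0.934), a subunit of complex III of the respiratory chain. Cidea was most like Uqcrc2 (0.959), Ucp1 (0.946) and Ppara (0.938). Cox8b had Elovl3 (0.938) and the complex I subunit Ndufb5 (0.9) among its nearest, and Cox7a1 had Cox8b (0.9) and the citric acid cycle enzyme subunit Suclg1 (0.876). Elovl3 was most like Camta1 (0.945). The nearest genes of Dio2 were Ptges (0.87), a prostaglandin E synthase, and Cox7a1 (0.827), and of Prdm16 Cnnm3 (0.822) and Trarg1 (0.791). With group means removed, Uqcrc2 kept r = 0.817 with Ucp1 and 0.853 with Cidea, while Ptges had 0.609 with Dio2.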

How the data were processed

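The submitters' processing notes name GCRMA 2.20.0 and R 2.11.1 for the deposited values, which are log2 expression per probe set. Whether the authors filtered them or adjusted for batches is not stated. The probe table gave 1 gene symbol for 34945 of 45037 probe sets, several for 932 and none for 9160. The brightest single-symbol probe set stood for a gene.

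The 12078 genes at a log2 of 4 or above in 4 arrays or more were tested with limma 3.58.1 in R 4.3.3, with 1 mean per group over all 16 arrays (12 residual and 3.84 prior degrees of freedom), two-sided, with Benjamini-Hochberg adjustment and a threshold of 0.05. Intervals are 95% confidence intervals. With 4 arrays to a group, precision is limited by their number. The model was checked on simulated data.

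The members, the gene lists (12 besides the members, 174 entries) and the tests were chosen with earlier results of these data known. Named were the 7 members, every paralog tested, up to 4 members of each other list with the smallest p, Sirt1 and up to 5 genes most like each member, of which not every one is printed. Epsti1 and Slc27a1 fall under this rule as beige markers. Cpt1b had been planned as an eighth member, so 21 pairs were tested in place of 28. A summed level is the log2 of the sum of a list's unlogged values. Motifs were searched in promoter sequences from RefSeq. Alternatives concerned the filter on low values, a floor, which groups were fitted, the variance estimate, weights per array, scaling, the choice of probe set, muscle transcripts, a replicate block and single arrays left out.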

Additional observations from a re-analysis of the deposited data

Results flagged for a closer look

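In 28 combinations of a gene and a group, the highest and lowest arrays were compared with the others of that group, and 2 stood apart. Chance flags about 1 in 20 groups. Ucp1 was lowest at 7.80 in wild-type low fat replicate 4, where the other 3 arrays of the group lay between 10.05 and 10.35. That array had a summed muscle level of 13.6. Replicate 3 of the same group had one of 13.8, with Ucp1 at 10.27. The part of muscle in these values was not tested. Elovl3 was highest at 2.88 in wild-type high fat replicate 1, which is still under the filter level of 4.

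The diet effect on Dio2 differed between genotypes by -1.66 (knockout minus wild type, adjusted p = 0.0386 in limma). The call did not hold under every alternative, as given below.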

How the results depend on the processing

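The falls of Ucp1, Cidea and Cox8b with diet kept their direction and their call in both genotypes under every alternative run. Over all genes tested, deviations of arrays with equal replicate numbers correlated between -0.321 and 0.199 in 24 pairs (5 over 0.1). Such correlations cannot show an effect of replicate number on a single gene. Prdm16 was lowest in replicate 1 in every group, and highest in replicate 4 in all but the high fat knockout group. Values under about 4 depend on the background correction, which limits Elovl3 and Dio2.

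The count of called genes among the 7 for the difference of diet effects was 0 under 7 alternatives: no filter, a filter at 6, values under 4 set to 4, quantile normalisation, the mean of all probe sets, the replicate block, and without the 5 muscle-rich arrays. By probe set it was also 0 without a filter and with the replicate block, both chosen after seeing the data. For genotype on low fat it was 0 with a filter at 6, with the mean of all probe sets (both of which leave Dio2 untested) and without the 5 arrays. For genotype on high fat it was 1 when only the compared groups were fitted. Leaving out 1 array at a time gave counts of 4 to 6 for diet in knockout, 4 to 5 for diet in wild type, 1 to 2 for genotype on low fat, 0 to 0 for genotype on high fat and 0 to 1 for the difference of diet effects.

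Signs turned for values that did not pass as reported. With array weights Dio2 for diet in wild type was 0.015 and Elovl3 for genotype on low fat 0.22. Cidea for genotype on low fat was -0.047 after median centring, -0.033 after quantile normalisation, -0.48 without the 5 arrays and -0.063 with the muscle covariate. Prdm16 was 0.10 for genotype on high fat with the mean of all probe sets, and for diet in wild type 0.40 without the 5 arrays and 0.017 with the covariate. Ucp1 for genotype on high fat was -0.45 without the 5 arrays and -0.057 with the covariate, and Cox8b for the difference of diet effects 0.24 without the 5 arrays. Leaving out 1 array, the ranges that crossed 0 were for genotype on low fat -0.32 to 0.55 (Cidea) and -0.69 to 0.42 (Elovl3), for genotype on high fat -0.44 to 0.77 (Ucp1) and -0.27 to 0.001 (Prdm16), for diet in wild type -0.14 to 0.23 (Dio2) and -0.18 to 0.25 (Prdm16), and for the difference of diet effects -0.79 to 0.14 (Cox7a1), -0.34 to 0.22 (Cox8b) and -0.14 to 0.97 (Elovl3). The Prdm16 correlations without 2 arrays were 0.631 (Ucp1), -0.053 (Cidea), 0.365 (Cox8b), -0.666 (Cox7a1), 0.373 (Elovl3) and -0.327 (Dio2), of which those with Ucp1 and Cox7a1 passed there (adjusted permutation p = 0.0492 each). The causes were not tested.

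Over all genes, calls numbered 5354 for diet in knockout, 3424 for genotype on high fat and 2481 for the difference of diet effects with array weights, and 1292 for genotype on low fat with only the compared groups. Without the 5 arrays they numbered 2341 for diet in knockout, 2567 for diet in wild type, 814 for genotype on high fat, 845 on low fat and 424 for the difference of diet effects. Leaving out 1 array moved the counts by over 1.5 times in 5 cases: genotype on high fat (1818 as tested) to 1084 without high fat knockout replicate 1 and 1204 without high fat wild-type replicate 3, genotype on low fat (2284) to 1426 and 1515 without low fat knockout replicates 1 and 2, and the difference of diet effects (1569) to 2382 without low fat wild-type replicate 2. The higher and lower calls for diet in wild type were 2472 and 1832 as tested, and 2050 and 2552 after median centring. For genotype on low fat they were 1410 and 874, and 1151 and 1274, and for the difference of diet effects 618 and 951, and 853 and 868. Of the 173 calls among the other listed genes, 98 were kept without the 5 arrays, 152 with the replicate block and 164 after median centring.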
